A study of Mus musculus with 6 samples.

Results

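Chemokines are small secreted proteins that direct the movement of leukocytes, and 7 chemokine genes were followed here in mouse tumor organoids (MTOs) exposed to chemotherapy. They are Cxcl1, Cxcl2, Cxcl3, Cxcl5, Ppbp, Ccl20 and Cxcl16, taken from a table of 24190 genes in which 14692 had enough reads to be tested. The 7 genes were chosen by name from the measured change between Folfiri and control samples in these same libraries, so their levels and fold changes are given below as a description, without a test. Values of single samples are always given in the order of replicates 1, 2 and 3. All 7 members had enough reads, and each was located through its Ensembl identifier in the GENCODE annotation of the GRCm38 mouse genome.

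The libraries were poly(A) RNA sequencing of MTO54, a single colorectal cancer organoid line of the AKP type. Control and treated samples alike were made from this line, which every sample label calls parental. Single cells were seeded in basement membrane extract, and 2 days later 3 cultures received Folfiri and 3 received medium alone (Ctrl) for 2 days. Folfiri stood for 5FU, an inhibitor of thymidylate synthase, at 50 μg/μl as the labels write the unit, with SN38, the active form of the topoisomerase I inhibitor irinotecan, at 100 nM. The labels number the samples 1 to 3 in each group without stating how separate the cultures were, and errors measure the spread between these samples. A figure legend of the study calls them biological replicates, and gives a longer treatment than the labels and methods do. Only RNA was measured.

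Cxcl1, Cxcl2, Cxcl3, Cxcl5 and Ppbp encode CXC chemokines with the ELR motif, which bind the receptor Cxcr2 and attract neutrophils. Ccl20 is the ligand of Ccr6, found on Th17 cells, B cells and dendritic cells, and epithelium over lymphoid follicles of the gut is a known source. Cxcl16 is made as a transmembrane protein that binds Cxcr6 on T cells, and the metalloproteases Adam10 and Adam17 release it from the cell surface. NF-kB, switched on by TNF, IL-1 and Toll-like receptors, is a known activator of several of these genes, and IL-17 is known to prolong the life of their short-lived mRNAs.

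Promoters are shown first because the CXC genes lie side by side and 3 of them carried the same 11 bases. Promoters from RefSeq (GRCm38.p6) were matched for 5 of the 7 members, Cxcl1, Cxcl2, Cxcl3, Ppbp and Ccl20. The 120 bases before each RefSeq start are printed 5′ to 3′, all on the plus strand, with capitals for matches to the kappa-B consensus, the DNA letters recognised by NF-kB, and for ATAAA, a core of the TATA box.
Cxcl1 promoter, chr5:90891125-90891244: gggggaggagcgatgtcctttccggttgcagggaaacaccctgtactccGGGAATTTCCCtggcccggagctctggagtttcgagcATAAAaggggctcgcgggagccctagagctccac
Cxcl2 promoter, chr5:90903779-90903898: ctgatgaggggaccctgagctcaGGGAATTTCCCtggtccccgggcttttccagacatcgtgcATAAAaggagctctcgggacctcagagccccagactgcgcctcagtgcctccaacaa
Cxcl3 promoter, chr5:90785981-90786100: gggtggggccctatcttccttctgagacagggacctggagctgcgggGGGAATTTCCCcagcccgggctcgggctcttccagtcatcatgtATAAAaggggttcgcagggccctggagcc
Ppbp promoter, chr5:90768398-90768517: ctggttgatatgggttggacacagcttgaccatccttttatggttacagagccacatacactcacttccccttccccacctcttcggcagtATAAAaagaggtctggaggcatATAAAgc
Ccl20 promoter, chr1:83116646-83116765: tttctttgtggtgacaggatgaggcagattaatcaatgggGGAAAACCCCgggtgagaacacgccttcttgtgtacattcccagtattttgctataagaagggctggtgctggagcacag

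Cxcl1, Cxcl2 and Cxcl3 each held GGGAATTTCCC, whose 11 bases hold a match on each strand, overlapping each other. It began 71 bases before the start of Cxcl1, 97 before that of Cxcl2 and 73 before that of Cxcl3. The RefSeq start of Cxcl2 lies 28 bases inside the GENCODE transcript, and counted from the GENCODE starts the same stretch began 67, 69 and 75 bases upstream in Cxcl1, Cxcl2 and Cxcl3. Ccl20 held GGAAAACCCC from 80 to 71 bases before its start. Ppbp held no match in its 250 bases, and a single TGANTCA, the AP-1 motif, stood 204 bases before its start. The kappa-B consensus, searched on both strands, was present in 7.25% and TGANTCA in 6.75% of 32841 RefSeq promoters over the same 250 bases. ATAAA, searched on the sense strand in the last 100 bases, was present in 11% of promoters. It occurred in Cxcl1, Cxcl2, Cxcl3 and Ppbp but not in Ccl20. A match of letters is a description and binding was not measured.

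Depth is given as counts on genes, which ranged from 22103591 to 28771207 in controls and from 26953969 to 30098210 after Folfiri. Levels are CPM (counts scaled to a common library size, here with TMM factors), and fold changes are the log2 estimates of edgeR with their standard error (SE). Folfiri changed a large share of the transcriptome. At an adjusted p under 0.05, with edgeR's quasi-likelihood test and Benjamini-Hochberg adjustment over 14692 genes, 11623 genes (79.1%) were called. Of the genes tested, 5926 (40.3%) were higher and 5697 (38.8%) lower after Folfiri. The 3 Folfiri samples lay above all 3 controls in 41.6% of genes. Scaled by total counts alone, 63.3% of called genes were higher in place of 51.0%, and the median log2 fold change of all genes was 0.30 in place of 0.02. Control replicate 1 stood apart, with a chi-square per degree of freedom of 23.7 and 22.4 over genes against the other controls, which differed by 3.84 from each other. Folfiri replicate 3 differed by 12.3 and 11.9 from the other treated samples, which differed by 3.55. Because these are bulk samples, fewer cells of a type and less RNA per cell cannot be told apart.

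Cxcl3 (ENSMUSG00000029379, chromosome 5, 90786103 to 90789600, plus strand) showed the steepest difference of the 7 genes. The controls held 17, 6 and 7 reads of it, against 1619, 2180 and 2392 in the Folfiri samples. The gene was thus close to silent in every control, and the lowest Folfiri sample was 88.7-fold above the highest control in CPM. Its level went from 0.404 ± 0.190 CPM (SD, n = 3) to 65.7 ± 9.98 CPM (SD, n = 3). The log2 fold change was 7.29 (SE 0.22), the 10th largest among the 14692 genes. Because only 30 reads were counted over the controls together, control replicate 1 weighed on this estimate, which was 7.79 without it.

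Cxcl5 (ENSMUSG00000029371, chromosome 5, 90759360 to 90761624, plus strand) followed. Its count was 43, 34 and 16 in the controls, compared with 1360, 1745 and 2049 under Folfiri. Controls were low throughout and differed among themselves, with replicate 3 the lowest, and the groups did not overlap. Mean levels were 1.24 ± 0.377 CPM (SD, n = 3) without and 54.7 ± 8.40 CPM (SD, n = 3) with Folfiri, which is 5.41 on the log2 scale (SE 0.19).

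Ccl20 (ENSMUSG00000026166, chromosome 1, 83116766 to 83119167, plus strand), the only CC chemokine of the set, was counted 43, 26 and 20 times in the controls. The treated samples held 896, 1134 and 1363 reads. The lowest Folfiri sample was 19.4-fold above the highest control, which was replicate 1. Mean levels of 1.21 ± 0.297 CPM (SD, n = 3) in controls and 36.0 ± 5.68 CPM (SD, n = 3) in treated samples gave a log2 fold change of 4.87 (SE 0.18).

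Ppbp (ENSMUSG00000029372, chromosome 5, 90768518 to 90770063, plus strand) encodes pro-platelet basic protein, known from the granules of platelets and processed to the neutrophil attractant Cxcl7. Reads numbered 81, 57 and 45 in the controls, whereas the Folfiri samples held 1393, 1671 and 2159. Every control therefore held some Ppbp reads, and every Folfiri sample was at least 16-fold above the highest of them in CPM. The level went from 2.5 ± 0.358 CPM (SD, n = 3) to 55.4 ± 9.48 CPM (SD, n = 3), a log2 fold change of 4.45 (SE 0.16). Of the 9 megakaryocyte and platelet markers examined, 2 had enough reads for the test and both were higher after Folfiri, as were 40.3% of all genes. Itga2b had 23, 31 and 19 counts in the controls and 49, 44 and 62 in the treated samples (adjusted p = 0.0138, edgeR) and Pf4, described below, stayed under 1 CPM. Gp1ba had 8, 6 and 4 counts in the controls, then 22, 19 and 9 in the treated samples, and Gp9, Gp6, Itgb3 and Treml1 had at most 3 counts in each sample. The summed level of the 9 ranged from 1.40 to 1.60 CPM in controls and from 2.65 to 3.22 CPM in treated samples. The part of platelet RNA in the Ppbp level was not tested.

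Cxcl1 (ENSMUSG00000029380, chromosome 5, 90891241 to 90893115, plus strand), the mouse chemokine also known as KC, had 113, 71 and 64 counts in the controls. Under Folfiri these became 1892, 2037 and 2521. The groups were separated by 15.6-fold between the highest control and the lowest Folfiri sample. Mean levels were 3.40 ± 0.622 CPM (SD, n = 3) in controls and 68.6 ± 6.96 CPM (SD, n = 3) in Folfiri samples, and the log2 fold change was 4.32 (SE 0.14).

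Cxcl2 (ENSMUSG00000058427, chromosome 5, 90903871 to 90905938, plus strand), also known as MIP-2, lies next to Cxcl1. The controls held 29, 27 and 21 reads and the treated samples 537, 625 and 719. It was the lowest of the 5 cluster members per length in treated samples, and its controls were the most even of the set in CPM. It averaged 1.07 ± 0.0205 CPM (SD, n = 3) in controls and 20.0 ± 1.91 CPM (SD, n = 3) in Folfiri samples. The log2 fold change was 4.22 (SE 0.14), close to that of Cxcl1.

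Cxcl16 (ENSMUSG00000018920, chromosome 11, 70453983 to 70459984, minus strand) behaved differently from the other members in size. It was already abundant in controls, with 1250, 1263 and 926 counts, and reached 2506, 2887 and 3119 under Folfiri. The groups did not overlap, although the gap between them was only 1.66-fold. It averaged 47.7 ± 2.75 CPM (SD, n = 3) in controls and 90.6 ± 5.74 CPM (SD, n = 3) in treated samples. The log2 fold change of 0.93 (SE 0.08) ranked 3100 among the genes tested, whereas those of the other 6 members ranked between 10 and 163. Scaled by total counts alone it was 1.20.

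**Figure D1:**
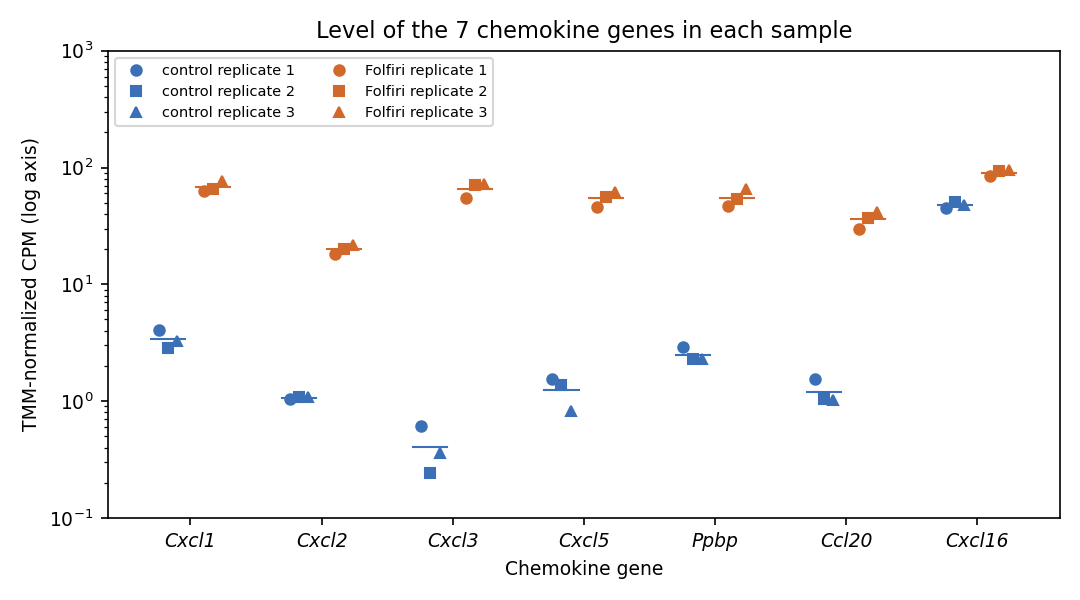
TMM-normalized CPM of the 7 chemokine genes on a log axis, with 1 point per sample (blue, control; orange, Folfiri; the shape gives the replicate) and a short line at the mean of each group. Cxcl3 goes from 0.404 to 65.7 CPM, while Cxcl16 goes from 47.7 to 90.6 CPM.

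The same sample order ran through the whole set. Folfiri replicate 1 was the lowest and Folfiri replicate 3 the highest of the treated samples in 7 of 7 members, an order found in 22.2% of all tested genes. Among the controls, replicate 1 was the highest in 5 members, Cxcl1, Cxcl3, Cxcl5, Ppbp and Ccl20, and it was the highest in 43.8% of tested genes. The highest control was replicate 3 for Cxcl2 and replicate 2 for Cxcl16. Summed over the 6 members other than Cxcl16, the level was 11.7, 8.84 and 8.90 CPM in the controls, against 258, 303 and 340 CPM under Folfiri.

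Levels of different genes can be set side by side only per length, here as CPM per kb of the longest annotated coding transcript. In controls Cxcl16 stood first at 17.7 CPM per kb, followed by Cxcl1 at 3.57 and Ppbp at 2.31. Ccl20 (0.851), Cxcl5 (0.790), Cxcl2 (0.574) and Cxcl3 (0.398) came last in CPM per kb. The ranges of Ccl20 and Cxcl5 over the 3 controls overlapped, as did those of Cxcl5 and Cxcl2 and of Cxcl2 and Cxcl3. After Folfiri, Cxcl1 stood first at 71.9 CPM per kb, with Cxcl3 at 64.7 and Ppbp at 51.1. Cxcl5 (34.7), Cxcl16 (33.6), Ccl20 (25.4) and Cxcl2 (10.8) followed. Cxcl1 and Cxcl3 overlapped in range, and Cxcl1 was above Cxcl3 in 2 of the 3 Folfiri samples, as was Cxcl5 above Cxcl16. The ranges of Cxcl3 and Ppbp and of Cxcl5 and Ccl20 overlapped as well, but within each of the 3 Folfiri samples Cxcl3 was above Ppbp and Cxcl5 above Ccl20. The choice of length matters most for Cxcl3, whose GENCODE exons together are much longer than its coding transcript. Per kb of all exons it stood at 18.8 CPM per kb after Folfiri, below Ppbp, which then stood first at 51.1, Cxcl1 at 36.6, Cxcl16, Cxcl5 at 29.4 and Ccl20 at 25.3. On that scale Ppbp was also above Cxcl1 in controls, at 2.31 against 1.81 CPM per kb.

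Ratios of counts within a sample do not depend on how libraries are scaled, and they separated the cluster members into those that kept step with Cxcl1 and those that did not. Ppbp was 71.7%, 80.3% and 70.3% of the Cxcl1 count in controls and 73.6%, 82.0% and 85.6% in treated samples, so the groups overlapped in range. Cxcl2 was 25.7%, 38.0% and 32.8% of Cxcl1 in controls and 28.4%, 30.7% and 28.5% under Folfiri, and these ranges overlapped too. Cxcl5 differed from both, with 38.1%, 47.9% and 25.0% of Cxcl1 in controls and 71.9%, 85.7% and 81.3% in treated samples, without overlap. Cxcl3 departed furthest, from 15.0%, 8.45% and 10.9% to 85.6%, 107% and 94.9% of the Cxcl1 count.

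The makeup of the 5 cluster members shifted accordingly. Cxcl3 made up 6.61%, 3.49% and 5.03% of their summed level per length of coding transcript in the controls, but 26.5%, 29.5% and 27.1% in the treated samples. The share of Cxcl3 was thus higher in each Folfiri sample than in any control, with means of 5.04% ± 1.56 (SD, n = 3) and 27.7% ± 1.60 (SD, n = 3). Cxcl1 made up 46.6% ± 2.49 (SD, n = 3) in controls and 31.0% ± 1.84 (SD, n = 3) after Folfiri. Ppbp made up 30.3% ± 0.777 (SD, n = 3) in controls and 21.9% ± 0.965 (SD, n = 3) after Folfiri. Cxcl5 went from 10.3% to 14.9% and Cxcl2 from 7.66% to 4.63%. Per kb of all exons the share of Cxcl3 was smaller, 2.07% ± 0.678 (SD, n = 3) in controls and 12.9% ± 0.840 (SD, n = 3) after Folfiri. On that scale Ppbp had the largest share in each sample, with a mean of 42.6% in controls and 35.0% after Folfiri. The summed CPM of the 5 genes was 8.62 ± 1.36 (SD, n = 3) in controls and 264 ± 35.3 (SD, n = 3) after Folfiri.

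**Figure D2:**
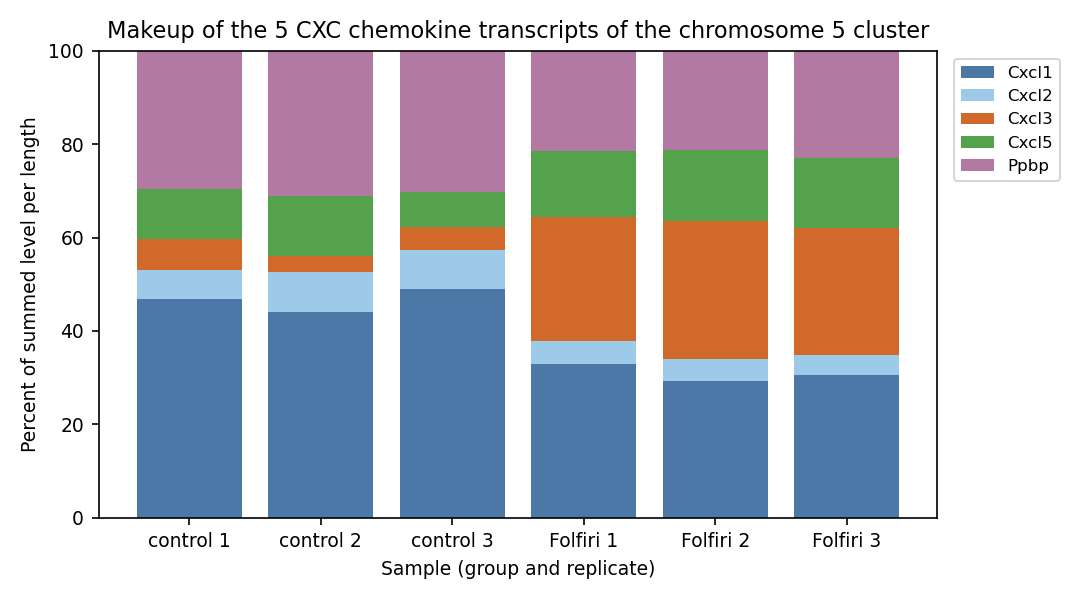
Stacked bars of the share (percent) that each of the 5 CXC genes takes of their summed level per kb of coding transcript, with 1 bar for each of the 3 control and 3 Folfiri samples. The Cxcl3 segment is at most 6.61% in controls and at least 26.5% under Folfiri.

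Since these paralogs resemble each other, reads could be shared between them, and the transcripts were compared with every other annotated transcript. Cxcl2 and Cxcl3 were the closest pair, with 91.6% identity over 320 aligned bases and an unbroken identical stretch of 110 bases between their coding transcripts, or 157 bases when all of their annotated transcripts were compared. Of the 50-base windows of the Cxcl3 coding transcript, 61 of 967 (6.31%) also occurred in Cxcl2, and of those of the Cxcl2 coding transcript, 61 of 1810 (3.37%) occurred in Cxcl3. At 100 bases 11 windows were shared. Cxcl1 shared no 50-base window with any other gene, nor did Ppbp or Ccl20, and the longest identical stretch between Cxcl1 and Cxcl2 or Cxcl3 was 23 bases. The windows that Cxcl5 shared (3.08%) belonged to genes outside the chemokine family.

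The counts themselves set a limit on sharing between Cxcl2 and Cxcl3. In control replicate 2 the Cxcl3 count was 22.2% of the Cxcl2 count, so at most 22.2% of Cxcl2 reads can have been counted on Cxcl3 if that share was the same in every sample. At this rate, Cxcl2 reads would make up at most 6.75% of the summed Cxcl3 counts after Folfiri and 7.37% of those of the Folfiri sample with the highest value. From the summed controls (30 counts against 77, or 39.0%), the corresponding value over the summed Folfiri samples was 11.8%. In the opposite direction the counts set almost no limit, since by the same reasoning up to 94.4% of the summed Cxcl2 counts after Folfiri could be Cxcl3 reads. If every shared 50-base window of Cxcl3 had been counted on Cxcl2, with even coverage, this would come to 20.8% of the Cxcl2 counts after Folfiri. The read length and the treatment of reads with several positions are not given in the sources used here. By count Cxcl3 exceeded Cxcl2 in each Folfiri sample, at 301%, 349% and 333%, and was below it in each control. Per length of coding transcript Cxcl3 was above Cxcl2 in control replicate 1, where they made up 6.61% and 6.17% of the cluster.

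Cxcl16 overlaps Zmynd15 on the opposite strand by 552 exonic bases, and the library kit named in the labels does not mark strand. Zmynd15 itself had only 12, 7 and 8 counts in the controls, then 36, 53 and 73 in the treated samples. These were between 0.554% and 2.34% of the Cxcl16 count of the same sample. Of the 50-base windows of the Cxcl16 coding transcript, 503 of 2650 (19.0%) also occurred in Zmynd15. How reads from the overlap were counted is not given in the sources used here.

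The cluster members span 147 kb, with other genes between and around them. Within 500 kb on either side lie 14 coding genes that are not members, of which 12 were tested, 5 higher and 4 lower after Folfiri, which is near the 40.3% and 38.8% of all genes. Pf4, platelet factor 4, sits between Ppbp and Cxcl3 and had 1, 0 and 3 counts in the controls, compared with 19, 16 and 24 under Folfiri. It was called higher (adjusted p = 2.75e-04, edgeR) but stayed near the floor beside its neighbours. Its log2 fold change of 3.40 was 2.81 without control replicate 2 and 4.76 without control replicate 3. Cxcl15, also called lungkine, lies between Cxcl3 and Cxcl1 and rose from 16.7 ± 0.674 to 28.6 ± 1.76 CPM (SD, n = 3), or by 0.78 on the log2 scale (SE 0.09, adjusted p = 1.17e-05, edgeR). The difference among neighbours was therefore wide, from 0.78 for Cxcl15 to 7.29 for Cxcl3.

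Beyond the chemokines, the EGF family ligands Ereg (log2 fold change 1.65) and Areg (0.83) and the gene model Gm9958 (0.58) were higher. Alb (-1.17), Rassf6 (-0.93), the EGF family ligand Btc (-0.66) and 5830473C10Rik (-0.37) were lower. Ankrd17 (0.04), Afp (0.18) and Mthfd2l (-0.04) were not called, and Afm and Epgn had too few counts for the test. Mthfd2l, the next coding gene past Cxcl2, turned to 0.24 and was called with total-count scaling.

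**Figure D3:**
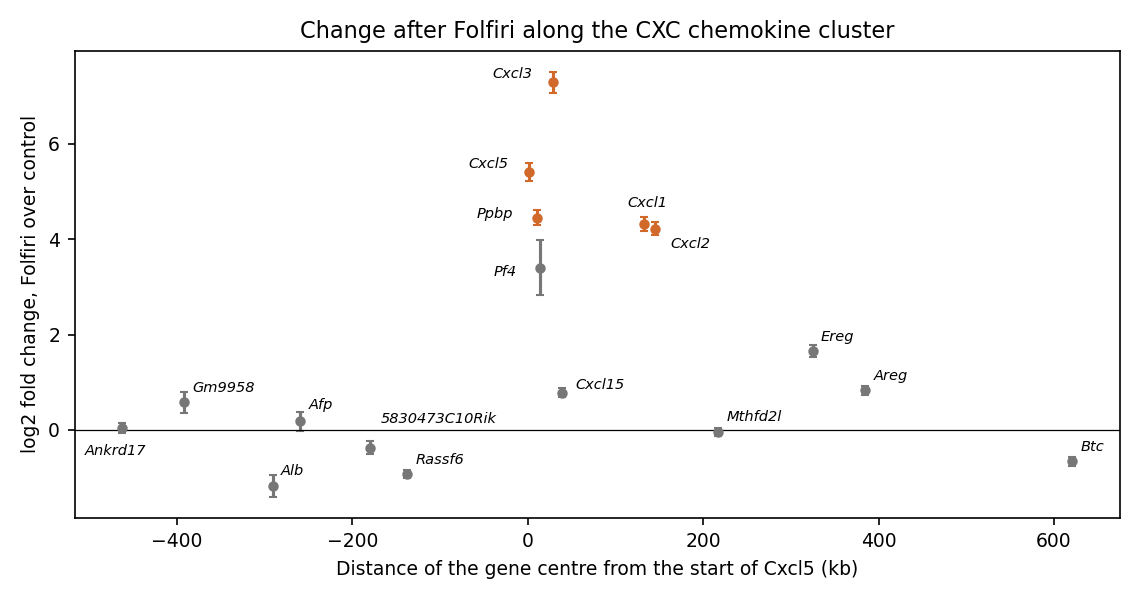
The log2 fold change, Folfiri over control, of each tested coding gene within 500 kb of the CXC cluster (bars, SE) against the distance of its centre from the start of Cxcl5 in kb. The 5 members (orange) lie between 4.22 and 7.29, and Ereg at 1.65 and Pf4 at 3.40 are the highest of the other genes (grey).

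A further property that the choice of members did not use is the AUUUA pentamer in the 3′ UTR, the core of AU-rich elements that shorten mRNA life. Counted in the longest coding transcript of each gene, Cxcl1 held 7 pentamers in 592 bases of 3′ UTR. Its 11.8 per kb were above 99.6% of 12243 tested coding genes. Ccl20 held 9 (8.57 per kb), Cxcl3 held 5 (7.75 per kb) and Cxcl2 held 11 (7.36 per kb), at percentiles 98.9, 98.4 and 98.0. Cxcl5 was lower at 4.50 per kb (percentile 91.8). Ppbp with 1 pentamer and Cxcl16 with 2 were near the median of 1.34 per kb, at 1.52 and 1.41 per kb. The pentamer density did not order the fold changes, since Ppbp and Cxcl1 had log2 fold changes of 4.45 and 4.32. mRNA decay was not measured.

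**Figure D4:**
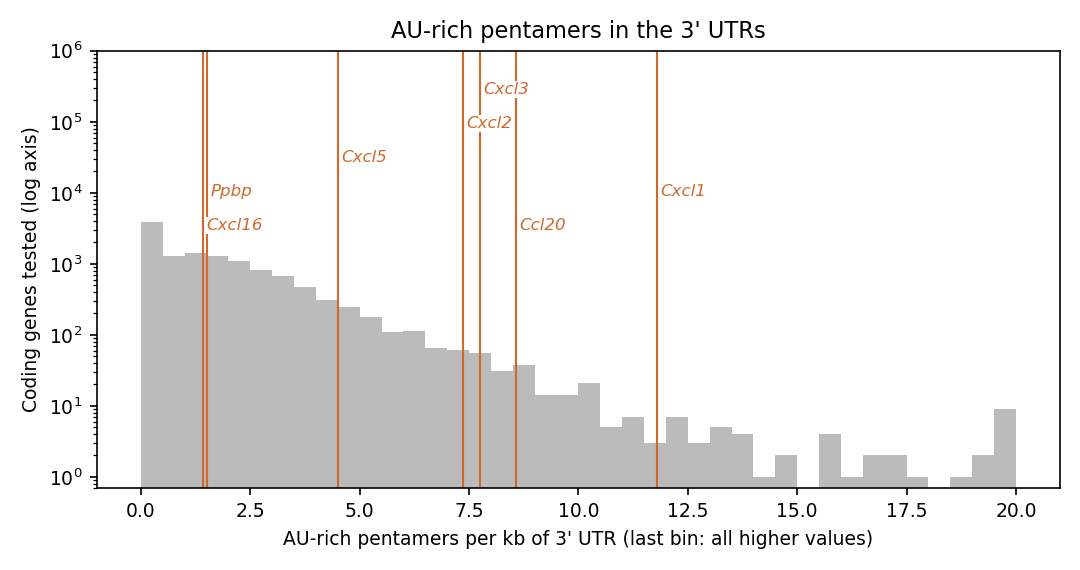
Number of tested coding genes (log axis) by AU-rich pentamers per kb of 3′ UTR, in bins of 0.5, with an orange line at the value of each of the 7 chemokine genes. Cxcl1, Ccl20, Cxcl3 and Cxcl2 lie at 7.36 per kb or above, and Ppbp and Cxcl16 near the median of 1.34.

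The other chemokine genes were far less abundant or changed less. Of 30 listed genes 7 were tested, and 6 were higher (85.7%, against 40.3% of all genes) and 1 lower after Folfiri. The median log2 fold change was 0.91, beside 0.02 over all genes. Among the 6, Ccl9 overlapped between the groups (adjusted p = 0.0438, edgeR). Its counts were 11, 2 and 1 in the controls and 11, 20 and 15 under Folfiri. Cxcl10, an interferon-induced ligand of Cxcr3, rose from 1.38 to 4.69 CPM (log2 fold change 1.75, SE 0.20). Cx3cl1, fractalkine, which like Cxcl16 is tethered to the membrane, rose from 74.5 to 140 CPM, and its log2 fold change of 0.91 (SE 0.07) was close to the 0.93 of Cxcl16. Ccl25, the gut ligand of Ccr9, rose by 0.68 on the log2 scale, and Ccl27a fell by 0.99. Their adjusted p values in edgeR were 1.40e-05 for Cxcl10, 5.20e-07 for Cx3cl1, 1.84e-04 for Ccl25 and 0.00221 for Ccl27a. Cxcl10 shares 133 exonic bases with Art3 on the opposite strand and Ccl25 shares 204 with Elavl1, so these counts are uncertain. The monocyte chemokine Ccl2, chosen after its values were seen, had no count in any control and 4, 13 and 9 counts under Folfiri.

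The receptors of the members were near or at 0. Cxcr2, which binds the ELR chemokines, had 5, 1 and 4 counts in the controls, and the treated samples held 1, 4 and 6. Cxcr1 had 1 count in all samples together, Ccr6 had 2, both in Folfiri replicate 3, and Cxcr6 had at most 4 in a sample. Of 23 chemokine receptor genes only Ccr2 and Ccrl2 had enough reads for the test. By edgeR 0 were higher (0 at an unadjusted p under 0.05 and 0 by DESeq2) and 1 was lower, Ccr2, which fell from 1.29 to 0.190 CPM (adjusted p = 3.71e-05). Over all genes 40.3% were higher and 38.8% lower, and with 2 receptors tested the counts do not set the list apart. Ligand transcripts were thus measured in cultures in which their receptors were not detectable above a few reads.

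Genes that act on or with the members moved in both directions. Adam10 and Adam17, which shed Cxcl16, fell from 495 ± 23.4 to 233 ± 17.8 CPM and from 106 ± 1.46 to 50.0 ± 2.70 CPM (SD, n = 3). Their log2 fold changes were -1.09 and -1.08, with adjusted p values of 6.23e-07 and 2.19e-07 in edgeR. Mmp7, a protease of intestinal epithelium, fell by 0.69 (adjusted p = 0.00489, edgeR) and lost the call with total-count scaling. These 3 were the tested ones of 11 listed chemokine proteases, all lower beside 38.8% of all genes, and edgeR called 0 of them higher (0 at an unadjusted p under 0.05), while DESeq2, which tested more genes, called 1. Adam17 shares 311 exonic bases with Iah1 and Mmp7 shares 123 with AV064505, both on the opposite strand.

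All 20 listed NF-kB subunits and regulators were tested and 20 were higher, against 40.3% of all genes, with a median log2 fold change of 0.88 beside 0.02 over all genes. Leaving out each replicate in turn gave 17 to 20 higher, with 17 without Folfiri replicate 2. None was lower by edgeR (0 at an unadjusted p under 0.05 and 0 by DESeq2). The 6 with the largest change included the inhibitors Nfkbie (3.20) and Nfkbid (2.79), the kinase Map3k14 (2.20) and the feedback inhibitor Tnfaip3 (1.55). The others were Traf3 (1.53) and the subunit Relb (1.36). Map3k14 shares 135 exonic bases with 1700028N14Rik on its own strand. Of 38 listed genes of the IL-17, IL-1, TNF and Toll-like pathways 30 were tested, 22 higher (73.3%, against 40.3% of all genes) and 3 lower, with a median of 1.03. Tnf rose from 3.79 ± 0.691 to 29.2 ± 2.93 CPM (SD, n = 3) and Il1a from 1.06 to 10.4 CPM (log2 fold changes 2.95 and 3.25), and Il1a shares 222 exonic bases with Gm14023 on the opposite strand. Nod2, with 8, 3 and 1 counts in the controls, rose by 3.82 from 0.153 CPM, or by 4.67 without control replicate 1. Il17c, Il36g and Il18 were called as well, from at most 2 counts in any control. Nod1 (-1.17), Tradd (-0.73) and Il17rc (-0.61) were lower.

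Among 13 listed RNA-binding factors, which act on mRNA decay or translation through AU-rich elements or through stem-loops, all were tested and 6 were higher (46.2%) and 5 lower (38.5%), near the 40.3% and 38.8% of all genes, with a median log2 fold change of 0.04. The endonuclease Zc3h12a (Regnase-1), which is known to cut at stem-loops, rose from 1.40 to 9.73 CPM, a log2 fold change of 2.77. Its antagonist Arid5a (1.44) rose too, as did the stem-loop binding proteins Rc3h1 (1.16) and Rc3h2 (1.14) and the AU-rich element binding proteins Hnrnpd (0.51) and Elavl1 (0.49). The decay factors Zfp36l2 (-0.95) and Zfp36l1 (-0.66) and the translational repressors Tia1 (-0.69) and Tial1 (-0.54) were lower. Zfp36l1 shares 1672 exonic bases with Gm26669 and Hnrnpd 385 with Gm17092, both on the opposite strand. Tia1 shares 352 with Gm44790 on its own strand, and the counts of all of these are uncertain.

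Growth factors for myeloid cells formed the listed group with the largest median, 2.41, with 8 of 9 tested genes (88.9%, against 40.3% of all genes) higher and 1 lower among 10 listed. Csf1, the macrophage growth factor, rose from 0.949 ± 0.363 to 18.6 ± 3.39 CPM (SD, n = 3), with a log2 fold change of 4.24 (SE 0.23), close to those of Cxcl1 and Cxcl2. Csf3, which drives neutrophil production, had 9, 4 and 4 counts in the controls against 93, 102 and 128 under Folfiri, or 3.85 higher on the log2 scale (SE 0.27). Csf2 had 0, 1 and 1 counts in the controls against 31, 29 and 47 under Folfiri, and its log2 fold change of 5.15 was 4.53 without control replicate 1. Tslp (2.63), Il11 (2.41) and Kitl (1.77) were higher, and Flt3l (-1.08) was lower. Csf2 shares 96 exonic bases with the antisense gene Gm12223, and Flt3l shares 856 with Gm45713 on its own strand. The adjusted p values in edgeR were 6.12e-08 for Csf1, 3.42e-07 for Csf3 and 6.78e-06 for Csf2.

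**Figure D5:**
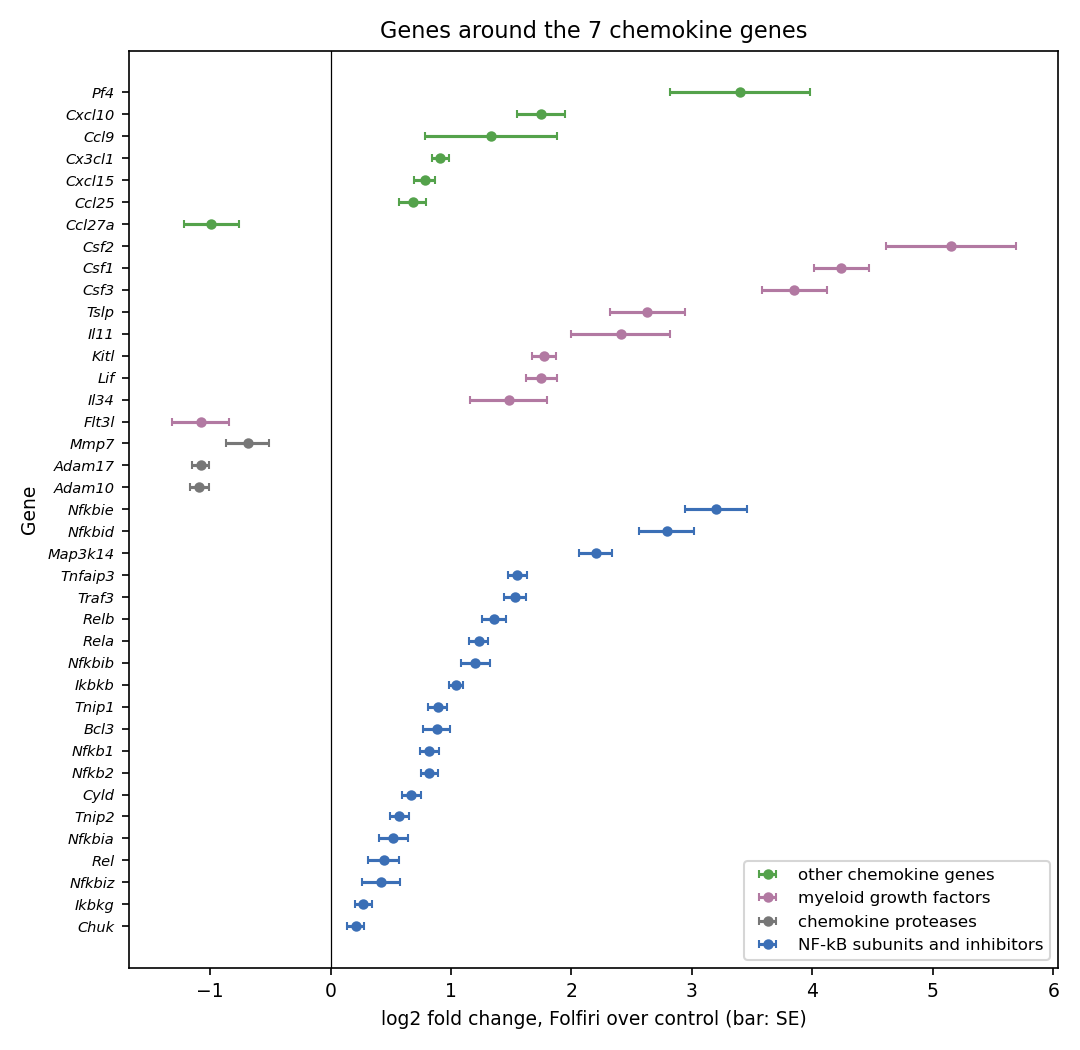
The log2 fold change, Folfiri over control, of the tested genes of 4 listed groups around the chemokine genes, with SE as bars. Myeloid growth factors (purple) reach 5.15 for Csf2, the NF-kB list (blue) lies above 0, and the 3 proteases (grey) lie below 0.

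Markers of other cells were examined beside these ligands. All 9 epithelial markers were present, and their sum ranged from 5980 to 6950 CPM in controls and from 4820 to 4990 CPM under Folfiri. By edgeR 5 of the 9 were lower, among them Cdx2 (log2 fold change -1.53) and Epcam (-0.94), and 1, Cdh1, was higher (0.21), beside 38.8% and 40.3% of all genes. Of the 10 neutrophil markers, Mpo, Elane, Retnlg, Csf3r and Ngp had at most 3 counts in each sample. Without Ly6g, which these organoids held at 1130 CPM in controls and 519 CPM after Folfiri, the list summed to at most 1.66 CPM in controls (lowest 1.16) and at least 9.07 CPM under Folfiri (highest 10.4). S100a8 went from 0.913 to 5.22 CPM and S100a9 from 0.304 to 4.37 CPM, and both are known from inflamed epithelium as well. The macrophage list ranged from 27.8 to 31.8 CPM in controls and from 33.9 to 36.2 CPM in treated samples in sum, led by Cd68 at 23.6 CPM in controls. Cd68 was not called, but 3 of the 4 macrophage markers tested were higher by edgeR, against 40.3% of all genes. These were Cd14 from 6.31 to 12.8 CPM (adjusted p = 9.97e-06), Adgre1 from 0.226 to 0.863 CPM (2.53e-04) and Fcer1g from 0, 1 and 4 counts to 19, 18 and 13 (0.00177). The markers Lyz2, Csf1r and Tyrobp had 3 counts or fewer in each sample, and C1qa and C1qb were absent from the 24190 genes counted. Fibroblast markers ranged in sum from 1.08 to 1.44 CPM in controls and from 2.06 to 2.45 CPM in treated samples. Among them Pdgfra (0.397 to 1.14 CPM) and Dcn (2, 0 and 0 counts against 19, 26 and 20) were called higher and Col1a1 (0.842 to 0.301 CPM) lower. Pdgfra shares 456 exonic bases with Gm42802 and 166 with Gm42803, both on the opposite strand. Lymphocyte markers ranged in sum from 0.668 to 0.720 CPM in controls and from 1.44 to 1.68 CPM in treated samples, and Ptprc, the only one tested, was higher (0.396 to 1.06 CPM, adjusted p = 4.79e-04, edgeR). The endothelial list summed to between 79.8 and 133 CPM in controls and to 69.2 to 79.5 CPM under Folfiri, led by Cdh5. The M cell list, led by Tnfrsf11b, summed to 292 to 378 CPM in controls and to 503 to 540 CPM under Folfiri, with Gp2 and Sox8 at 3 counts or fewer. All 4 M cell markers tested were higher, against 40.3% of all genes, though Ccl9 had overlapping groups and an adjusted p of 0.0438 (edgeR). Spib, too low for the test, had no count in any control and 6, 15 and 10 under Folfiri. How far cells of these kinds enter the chemokine levels was not tested.

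The average profile of the 7 members over the 6 samples, as centred log2 CPM, was most closely followed by 5 other genes. They were Plekhs1 (root mean square distance 0.109), Gbp6 (0.110), Amotl2 (0.141), Ptgs2 (0.154) and Cp (0.164). Gbp6 had 1, 0 and 0 counts in the controls, so its place depends on the prior count of 2 used for log2 CPM. Among the members Ppbp was closest to the average at 0.0493, while Cxcl3 at 1.38 and Cxcl16 at 1.78 were the farthest. Ptgs2, the inducible prostaglandin synthase, went from 5.56 ± 1.34 to 112 ± 10.2 CPM (SD, n = 3), 20.0-fold higher, the same fold as Cxcl1. Likeness over 6 samples in 2 groups mostly reflects the group difference, since 25.6% of the other tested genes had a Pearson correlation of at least 0.95 with the average profile.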

How the data were processed

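The authors aligned the reads with STAR (v2.5.2) to the mouse genome (GRCm38) under GENCODE annotation, made a table of reads per gene with Rsubread and deposited it as raw counts, not normalized. Read length, strand setting and the treatment of reads with several positions are not given in the sources used here. Samples were grouped by the labels (3 Ctrl, 3 Folfiri).

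The 7 members and all lists were chosen with earlier results of these data known. Gene identifiers were mapped with GENCODE vM21, on the same build, and 24168 of 24190 were found. Counts were filtered with edgeR 4.0.16 (filterByExpr, defaults; R 4.3.3), TMM-normalized and tested with its quasi-likelihood test and Benjamini-Hochberg adjustment over 14692 genes, at a threshold of 0.05. DESeq2 1.42.0, the tool of the study's methods, was run as an alternative. The procedure was tested on simulated data.

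Named genes were the members, up to 6 genes per direction and list with the largest change among called genes whose groups did not overlap, the members' receptors, Pf4, coding genes within 500 kb of the CXC cluster, the leading and missing markers of each marker list and the 5 genes most like the members. Other markers, Ccl2, Ccrl2 and genes that overlap a named gene fall outside this rule and were named after their values were seen. Results for some genes that the rule covers are left out. Transcripts were compared in windows of 50, 75 and 100 bases. The kappa-B consensus and TGANTCA were searched on both strands of the 250 bases before each RefSeq start. The window for ATAAA was widened to 100 bases after the sequences were seen. Total counts per sample were between 22103591 and 30098210, and low counts limit the precision of the control levels. Alternatives were other scalings and filters, DESeq2, a replicate block and leaving out each replicate.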

Additional observations from a re-analysis of the deposited data

How the results depend on the processing

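The direction of the 7 members was the same under every alternative run. Scaled by total counts only, the log2 fold changes were 4.59 for Cxcl1, 4.50 for Cxcl2, 4.72 for Ppbp and 1.20 for Cxcl16. Leaving out each replicate in turn gave 7.0 to 7.79 for Cxcl3, with the highest value without control replicate 1, 4.19 to 4.49 for Cxcl1, 4.16 to 4.30 for Cxcl2, 5.22 to 5.60 for Cxcl5, 4.32 to 4.59 for Ppbp, 4.75 to 5.12 for Ccl20 and 0.89 to 0.98 for Cxcl16. Genes called ranged from 10630 to 12742 of those tested over all settings. Counts in the short lists moved. Without a filter on low counts, other chemokine genes gave 11 higher and 2 lower, NF-kB genes 19 higher, receptors 1 higher and 3 lower, and proteases 1 higher. Other chemokine genes called higher were 4 with a CPM of at least 1 required and 5 to 6 when each replicate was left out. Receptors called lower were 0 with that CPM required and 2 by DESeq2, and proteases called higher were 1 by DESeq2. Receptors called higher ranged from 0 to 1 when each replicate was left out. Mthfd2l turned to 0.24 (adjusted p = 0.0186, edgeR) under total-count scaling. Samples with the same replicate number did not deviate together (correlations 0.0267, -0.117 and 0.0393). Those with unlike numbers reached -0.118 and 0.12, so these values do not settle whether the numbers pair the samples. With the replicate number as a block 11499 genes were called, 11374 of them among the 11623 called without it. Few reads limit the control levels of Cxcl3, Cxcl2, Ccl20 and Cxcl5, and the cause of each shift was not tested.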
